A study of Gallus gallus with 9 samples.

Results

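Of 14172 genes with enough reads to be followed in the chick dorsal mesentery, 111 stood at least 3 times higher at embryonic day 12 (E12) than at embryonic day 8 (E8), reached 10 CPM (counts per 1 M, mega, of counted reads) or more at E12, and had a mean at E16 within 1.5 times of their E12 mean in either direction. They are called the held genes here. They were chosen by the stage means of these same 9 libraries, so the size of the step from E8 to E12 and the small size of the step from E12 to E16 follow from the choice and are given as description. The count table lists 24356 genes in all. It gives Ensembl identifiers and no gene names. The RefSeq gene table used here, with 25635 chicken genes of assembly GRCg7b, lists no Ensembl identifiers, so it could not supply names and matched 0 of them. The held genes are therefore described by their levels and their behaviour across libraries. By identifier, 2 of them are named, and no function is given to any of them.

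The dorsal mesentery is a thin sheet by which the small intestine hangs from the body wall. It consists of loose connective tissue between mesothelial layers and carries the vessels, lymphatics and nerves of the gut. As the gut tube outgrows the sheet that holds it, the tube buckles into loops. The stiffness and growth of the mesentery are among the properties of tube and sheet that set the size of those loops.

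All 9 libraries came from wild-type White Leghorn embryos, and no agent was applied. There were 3 libraries from E8, when looping begins, 3 from E12, when it is under way, and 3 from E16, when it is complete. Each library was made from the pooled mesenteries of 3 embryos, after the gut tube and the superior mesenteric artery had been dissected away, and was enriched for polyadenylated RNA. Per library, between 22.96 and 30.62 M (mega) reads were counted in genes. Levels are CPM, scaled between libraries by the trimmed mean of M-values (TMM). The tissue could not be checked against cell type markers because the identifiers carry no names. In whole tissue, a change in the number of cells of a type and a change in RNA per cell cannot be told apart.

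The held genes formed a substantial part of the mesentery transcriptome. Together they took 1.65% ± 0.149 of the counts in the 14172 genes in the E8 libraries, 5.73% ± 0.694 in the E12 libraries and 6.35% ± 0.356 in the E16 libraries (SD, n = 3 per stage). For a fixed set of genes such a share does not depend on TMM scaling, but the members were chosen on TMM-scaled means. On the TMM scale their summed level was 16178, 13115 and 15533 CPM in the E8 libraries, 49554, 74279 and 63252 CPM in the E12 libraries, and 62962, 68375 and 63434 CPM in the E16 libraries, each for replicates 1, 2 and 3. Every E12 and E16 library stood far above every E8 library, a separation that follows from the choice of the members. The E16 values lay within the range of the E12 values, which was the widest of the 3 stages. The median TMM-scaled level of all 14172 genes moved little. It was 25.5 ± 0.295 CPM in the E8, 23.1 ± 1.15 CPM in the E12 and 24.9 ± 0.587 CPM in the E16 libraries (SD, n = 3 per stage). TMM scaling holds the bulk of genes level, so this is partly set by the scaling. The median log2 difference of all genes between E12 and E8 was -0.24 with total counts and -0.01 with TMM.

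**Figure D1:**
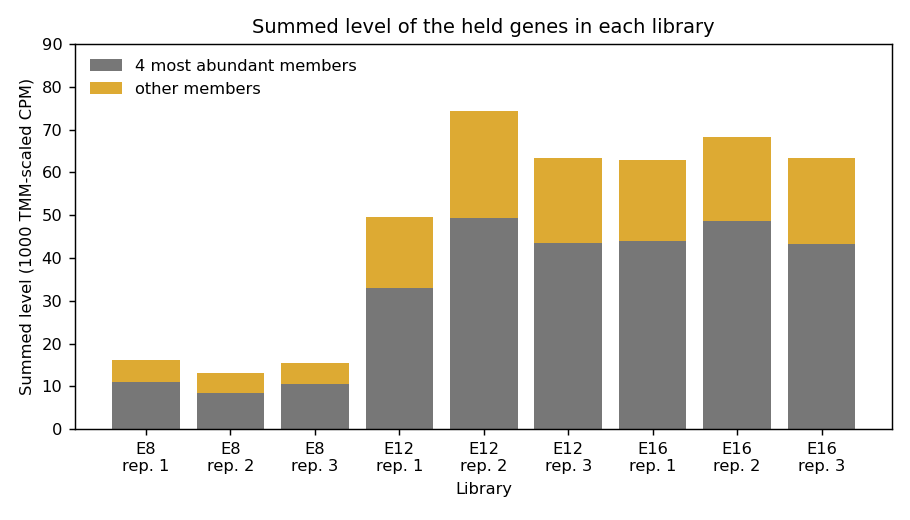
Summed level of the 111 held genes in each of the 9 libraries, in units of 1000 TMM-scaled CPM, with the 4 most abundant members (grey) stacked under the other 107 (yellow). E12 replicate 1 has the lowest sum of the E12 libraries, 49554 CPM, and the E8 libraries lie between 13115 and 16178 CPM.

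A few genes carried most of that sum. The most abundant member supplied 22.4% of the summed E12 level, the first 3 supplied 59.9%, and the first 10 supplied 83.3%. CPM grows with transcript length as well as with the number of molecules, and transcript lengths were not used here, so these shares and the ranks that follow describe reads. The first 4 members made up 67.3% of the sum at E8, 67.4% at E12 and 69.8% at E16. The remaining 107 genes followed the same course, summing to 4891 ± 317 CPM in the E8, 20354 ± 4219 CPM in the E12 and 19635 ± 667 CPM in the E16 libraries (SD, n = 3 per stage). The 4.17-fold ratio of the whole sum between E12 and E8 thus stood at 4.18 for the first 4 members and 4.16 for the others. Every member had to meet the same rule, so a shared course was set by the choice.

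The most abundant held gene was also the gene with the highest CPM of all 14172 genes at E12. It had 3617, 2624 and 3409 CPM in E8 replicates 1, 2 and 3, then 10142, 16626 and 15145 CPM in the E12 replicates, and 11119, 11371 and 11873 CPM in the E16 replicates. All E16 values lay inside the range of its E12 values, and all E8 values lay below both. In rank among all genes it stood 7th at E8, 1st at E12 and 5th at E16.

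The next most abundant member had 3708, 2583 and 3696 CPM at E8, 9728, 15063 and 13085 CPM at E12, and 11916, 12217 and 10897 CPM at E16. Like the first, it was lowest in replicate 1 among the E12 libraries and lowest in replicate 2 among the E8 libraries. The member ranked 3 behaved otherwise at E16. Its E16 values of 14589, 18652 and 14091 CPM all lay above its E12 values of 9666, 11869 and 10821 CPM, and its E8 values were 2330, 2232 and 2078 CPM. It stood 1st among all genes at E16. Its ratio of E16 to E12 was 1.46, close to the upper limit of the rule.

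The member ranked 4 showed the tightest agreement of any held gene at E16. Its values were 1367, 1137 and 1375 CPM at E8, 3540, 5872 and 4468 CPM at E12, and 6444, 6314 and 6382 CPM at E16. The coefficient of variation was 25.4% at E12 and 1.02% at E16. The member ranked 5 had 399, 309 and 406 CPM at E8, then 1860, 5057 and 2647 CPM at E12, with replicate 2 far above the others, and 3064, 2898 and 3144 CPM at E16. Its rank among all genes was 331 at E8, 16 at E12 and 15 at E16.

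Members among the most counted genes became more numerous between E8 and E12 and then changed little in number. This course follows from the choice of the members and is given as description. Among the 50 most counted genes there were 4 members at E8, 6 at E12 and 5 at E16. There were 4 among the 100 most counted genes at E8, 8 at E12 and 8 at E16. Among the 500 most counted genes there were 8 at E8, 18 at E12 and 19 at E16.

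**Figure D2:**
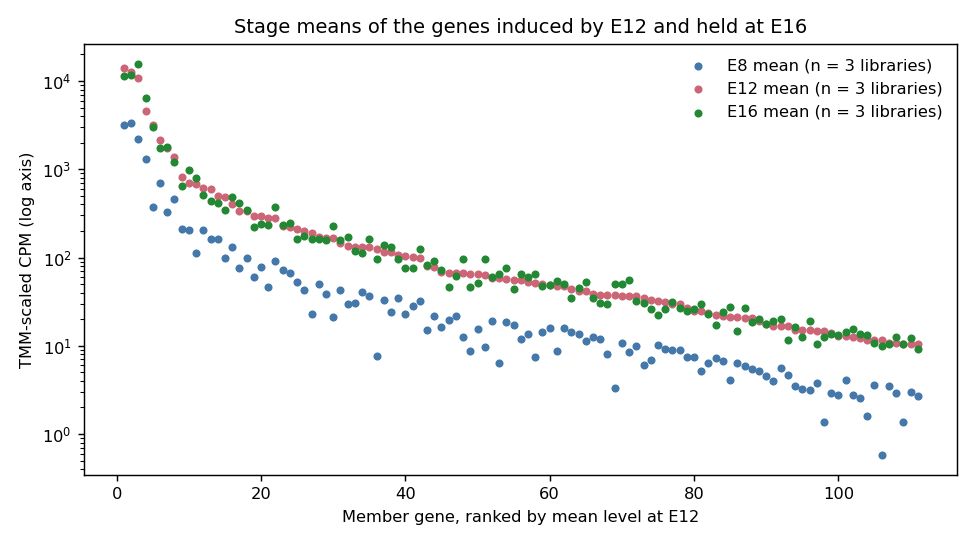
Stage means of the 111 held genes on a log axis of TMM-scaled CPM, ordered by their E12 mean. The E12 and E16 means interleave along the whole order, from 13971 CPM down to 10.4 CPM at E12, and the E8 means lie below both for every member, as the rule requires.

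Most held genes were already present at E8. Only 1 of the 111 had a mean under 1 CPM at E8, 47 lay between 1 and 10 CPM, 48 between 10 and 100 CPM, and 15 at 100 CPM or more. Their E8 means ranged from 0.575 to 3329 CPM with a median of 13.5 CPM. The lowest count of any member in any E8 library was 10 reads. At E12 the median level was 55.7 CPM and at E16 it was 53.8 CPM. Thus the group consists mainly of genes that were raised from a measurable level, with few that were near absence at E8.

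The step from E8 to E12 was moderate for most members. The ratio of E12 to E8 had a median of 3.78 and a middle range of 3.29 to 4.76, and 63 members (56.8%) lay between 3 and 4. A further 27 lay between 4 and 5, 17 between 5 and 10, and 4 above 10. Members that started low tended to have larger ratios, with a median of 4.30 among the 48 that were under 10 CPM at E8, 3.53 among the 48 between 10 and 100 CPM, and 3.64 among the 15 at 100 CPM or more. The E8 mean enters both quantities. In addition, the limit of 10 CPM at E12 forces ratios well above 3 on members with the lowest E8 means. The trend is therefore partly set by the rule.

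The largest step after 0.5 CPM was added to both means was that of ENSGALG00000010402. Its level was 5.06, 12.8 and 5.22 CPM in the E8 libraries, 147, 125 and 107 CPM in the E12 libraries, and 80.5, 87.7 and 123 CPM in the E16 libraries. No E12 or E16 value came near the E8 values, the E12 and E16 values overlapped, and replicate 1 was the highest of the E12 libraries. The means of E8, E12 and E16 were 7.68 ± 4.41, 126 ± 20.2 and 97.2 ± 22.9 CPM (SD, n = 3 per stage), a 16.4-fold ratio of E12 to E8. The ratio was 24.6 without E8 replicate 2, its highest E8 library, 14.0 without E8 replicate 1 and 14.2 without E8 replicate 3.

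The second gene by this measure was ENSGALG00000053318, a gene of low level. It had 1.03, 0.331 and 0.366 CPM in the E8 libraries, from 27, 10 and 12 reads, then 7.23, 16.2 and 11.03 CPM in the E12 libraries, and 9.21, 12.4 and 8.35 CPM in the E16 libraries. Again the E8 values lay below all others and the E12 and E16 values overlapped, but here replicate 1 was the lowest of the E12 libraries. The means of E8, E12 and E16 were 0.575 ± 0.392, 11.5 ± 4.48 and 9.97 ± 2.11 CPM (SD, n = 3 per stage). It was the member with the lowest E8 mean, and its 19.96-fold ratio of E12 to E8 was the highest in the group without the added 0.5 CPM. At so low an E8 mean, the limit of 10 CPM at E12 alone required a large ratio. The 19.96-fold ratio rested on few reads. It was 32.9 without E8 replicate 1 and 16.5 without E8 replicate 2. With 0.5 CPM added, it was 11.1 for this gene and 15.5 for ENSGALG00000010402, and the order turned without E8 replicate 1, at 14.1 and 13.4. When the share of reads in no annotated feature, given further on, was a covariate, the log2 fold change of ENSGALG00000053318 in E12 against E8 was 3.15, against 4.36 without it.

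**Figure D3:**
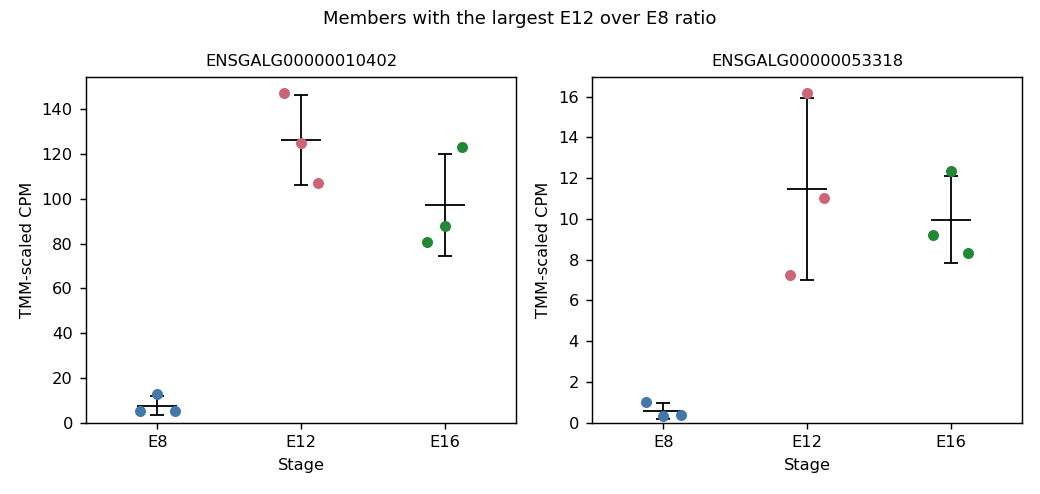
Levels of ENSGALG00000010402 and ENSGALG00000053318 in TMM-scaled CPM at E8, E12 and E16, with each library as a point, replicates 1 to 3 from left to right, and the mean and SD in black. In both genes all E8 points, at most 12.8 and 1.03 CPM, lie below every later point.

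The ratio of E16 to E12 was spread evenly around no change. It ranged from 0.688 to 1.496 with a median of 1.00, and 56 members were higher at E16 and 55 lower. Within 1.1 times of the E12 mean lay 30 members, while 18 were under 0.8 times and 21 were at 1.2 times or more. The ratio of E16 to E8 had a median of 3.84 and ran from 2.21 to 17.3, and 22 members stood less than 3 times above E8 at E16.

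The edges of the group were crowded. The 2 members nearest the lower fold limit had ratios of 3.005 and 3.006, and the 2 nearest genes that missed it had 2.974 and 2.972. Between 3 and 3.3 there were 28 members, and 44 genes that met the other conditions lay between 2.7 and 3. At the level limit the nearest members had 10.4 and 10.5 CPM at E12 and the nearest genes outside had 9.79 and 9.56 CPM. For the ratio of E16 to E12, the nearest values at the upper limit were 1.496 and 1.493 inside and 1.505 and 1.534 outside, and at the lower limit they were 0.688 and 0.699 inside and 0.655 and 0.653 outside.

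Because the members were chosen on the stage means, tests on these means describe the choice. With edgeR's quasi-likelihood test across 15506 genes, all 111 members were called higher at E12 than at E8 at an adjusted p under 0.05, where 25.7% of all genes tested were called higher. Their E12 and E8 values did not overlap in any of the 111, against 30.7% of all 14172 genes with every E12 value above every E8 value. For E16 against E8, all 111 were again called higher, with 22.9% of all genes called higher. Their E16 values all lay above their E8 values, against 29.4% of all genes. Nothing is read from these counts.

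Between E16 and E12, 7 members were called higher and 3 lower by the same test at an adjusted p under 0.05, where 26.9% and 26.6% of all genes were called higher and lower. The 7 had ratios of E16 to E12 between 1.26 and 1.496, and the 3 had ratios between 0.688 and 0.728. In 11 members all E16 values lay above all E12 values, and in 6 they lay below. The shares among all genes were 30.5% and 30%. The other 94 members had overlapping values at the 2 stages. The rule allowed at most a 1.5-fold difference here, so a low number was fixed by the choice. A miss of the threshold does not show that a member was equal at E12 and E16.

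Holding was one of 3 outcomes for genes that were high by E12. Of the 240 genes that met the level and fold conditions at E12, 111 (46.3%) were held, 86 (35.8%) were more than 1.5 times higher again at E16, and 43 (17.9%) were more than 1.5 times lower. Among all 9656 genes at 10 CPM or more at E12, 58.4% had an E16 mean within 1.5 times of E12, 17.7% were above that range and 24.0% below it. The 240 genes, chosen for a high E12 mean, share the E12 libraries with this second step. The held genes included the most abundant of the 240, with a highest E12 mean of 13971 CPM, against 1372 CPM among those that were higher again and 990.2 CPM among those that were lower again. Median E12 levels were closer, at 55.7, 45.4 and 39.6 CPM in this order. Median ratios of E12 to E8 were 3.78 for the held genes, 4.30 for those higher again and 3.72 for those lower again. By the mirror rule, at least 3 times lower at E12 than at E8 from 10 CPM or more and then within 1.5 times, 69 genes were found.

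The replicates of E12 differed in a way that ran through the group. The rule used the mean of these 3 libraries, so a gene that was high in 1 of them was more readily chosen, and the order of the replicates among members is partly set by the choice. Replicate 1 was the lowest of the E12 libraries in 89 of 111 members (80.2%), against 40.5% of all 14172 genes. Replicate 2 was the highest in 81 members (73.0%), against 35.4% of all genes. The full order, replicate 1 below replicate 3 below replicate 2, was found in 73 members (65.8%) and in 27.3% of all genes. After each stage was centred on its mean log2 level, with 0.5 CPM added, the median deviation of the members was -0.28 in replicate 1, 0.25 in replicate 2 and 0.03 in replicate 3. The medians over all genes were 0.01, 0.02 and -0.004. Genes are not independent replicates, all genes were not chosen for a high E12 mean, and no test was made.

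**Figure D4:**
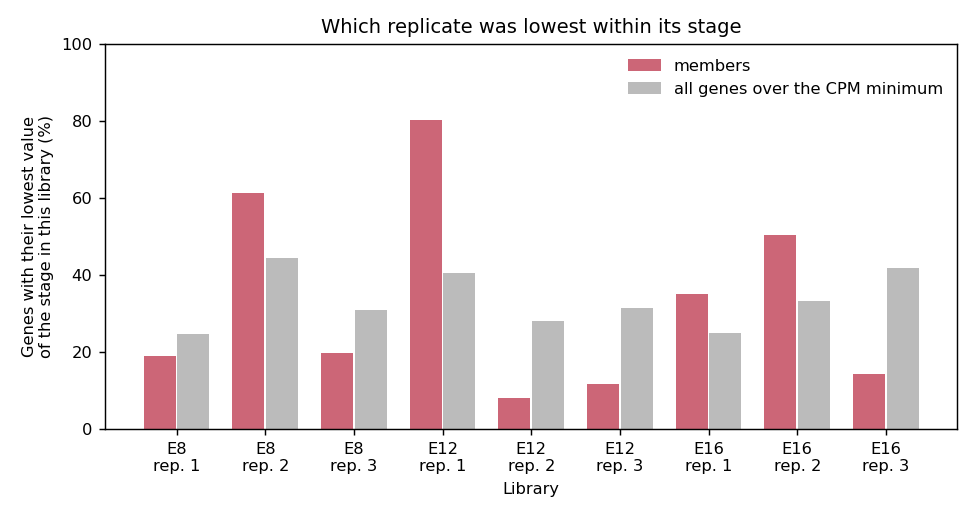
Share of genes, in percent, whose lowest value within a stage fell in the given library, for the 111 held genes (red) and all 14172 genes over the CPM minimum (grey). E12 replicate 1 was lowest in 80.2% of the held genes and 40.5% of all genes.

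In the other genes that were high by E12, also chosen on the E12 mean, replicate 1 was again most often the lowest. It was lowest in 57.0% of the 86 genes higher again at E16 and in 72.1% of the 43 lower again. Its median deviations there were -0.18 and -0.23. The share was 46.4% among the 9656 genes at 10 CPM or more at E12 and 40.5% among all genes. In the 86 genes replicate 3 was lowest in 34.9%, with a median deviation of -0.07, against 11.7% and 0.03 in the members. Among the held genes replicate 1 was lowest in most members at all starting levels. These were 34 of the 48 members under 10 CPM at E8, 41 of the 48 between 10 and 100 CPM, and 14 of the 15 at 100 CPM or more. Exceptions existed, and 10 members (9.01%), ENSGALG00000010402 among them, had their highest E12 value in replicate 1. Among all 14172 genes replicate 1 was the highest in 42.1% and the lowest in 40.5%. TMM scaling holds the bulk of genes level, so these shares cannot show whether replicate 1 was low for genes in general.

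The share of reads that fell outside every annotated feature ordered the E12 libraries the opposite way. Replicate 1 had 16.6% of its reads there (Wilson interval at 95%, 16.58 to 16.61). Replicate 2 had 11.03% (11.02 to 11.04) and replicate 3 had 13.45% (13.44 to 13.46). The E8 and E16 libraries had between 18.3% and 20.4%. The SD of the share was 0.316 at E8, 2.79 at E12 and 0.948 at E16 (n = 3 per stage), so within stages it varied mainly at E12. The intervals cover counting error only. With this share as a covariate, edgeR's quasi-likelihood test called 67 of the 111 members higher at E12 than at E8 at an adjusted p under 0.05, where 2.31% of all genes were called higher. It called 111 members higher at E16 than at E8, where 25.4% of all genes were called higher. The members were chosen on the stage means of these same libraries, so these counts are partly set by the choice and are given as description. The median log2 fold change of the members in E12 against E8 was 1.39 in that fit and 1.94 without the covariate, and 110 of the 111 stayed above 0. In E16 against E12 the median was 0.43 with the covariate and -0.01 without, so the position of E16 relative to E12 depended on it. Across the stages the share and E12 itself cannot be told apart in these libraries.

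Counted library by library against each member's E8 mean, 65 members (58.6%) reached 3 times that mean in E12 replicate 1, 108 (97.3%) in replicate 2 and 103 (92.8%) in replicate 3. The median ratio to the E8 mean was 3.19, 4.47 and 3.79 in these libraries. It was 3.76, 5.15 and 4.16 in the genes higher again at E16, and 3.41, 4.26 and 3.78 in those lower again. The rule used the mean of these E12 libraries, so the counts and ratios are partly set by the choice. Shares of all genes that reached 3 times their E8 mean were not computed. In the E16 libraries, 87, 80 and 91 members reached 3 times the E8 mean, with median ratios of 3.797, 3.58 and 3.85. The E16 libraries thus lay close together, and E12 replicate 1 was below all of them in median ratio while E12 replicate 2 was above all of them. The median of E12 replicate 1 over the mean of the other E12 replicates was 0.743, with a range of 0.397 to 1.31.

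**Figure D5:**
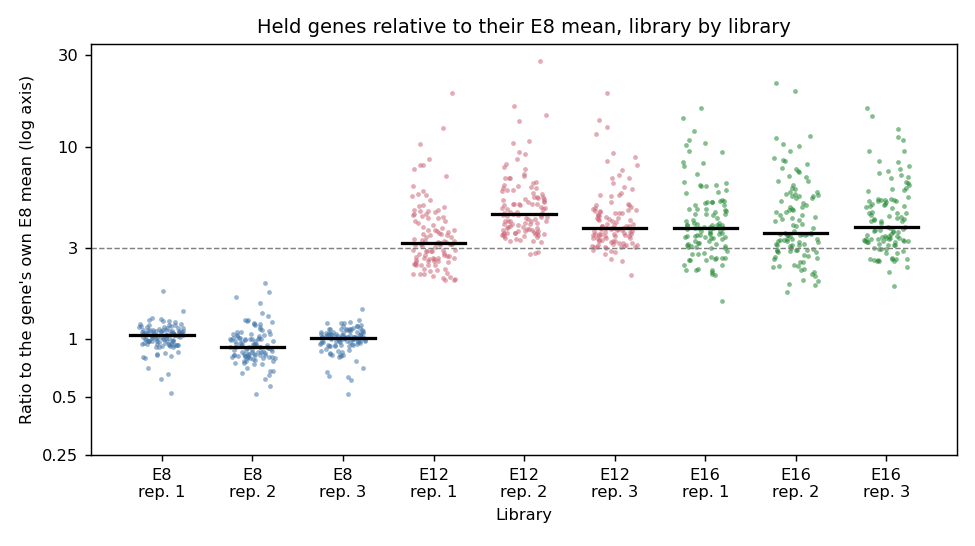
Ratio of each held gene to its own E8 mean in every library, on a log axis, with the median of the 111 genes as a black bar and the 3-fold limit as a dashed line. The median is 3.19 in E12 replicate 1, 4.47 in E12 replicate 2 and 3.79 in E12 replicate 3, and 3.58 to 3.85 at E16.

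The side of the E12 mean on which members lay at E16 differed between the E12 libraries, within the 1.5-fold limit in median. Against the mean of all E12 libraries, 56 of 111 members were higher at E16. Against E12 replicates 2 and 3 alone, 43 were higher at E16 and the median ratio of E16 to E12 was 0.907. Against E12 replicate 1 alone, 88 were higher and the median ratio was 1.21. Replicate 1 lay below the mean of the other E12 replicates in 97 of 111 members, which itself moves these counts. They use the E12 values on which the members were chosen, and shares over all genes were not computed for them. Without E12 replicate 1, edgeR's quasi-likelihood test called 4 members higher and 19 lower at E16 than at E12 at an adjusted p under 0.05, in place of 7 and 3. In that fit 29.6% and 28.2% of all genes tested were called higher and lower. Without E12 replicate 2 it called 11 higher and 1 lower, where 23.1% and 22.9% of all genes were called. Without E12 replicate 3 it called 4 higher and 1 lower, where 21.7% and 22% of all genes were called.

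A library left out of its stage mean gives a view that this mean did not use. The view is only partly separate from the choice. The CPM filter, the TMM factors and the other stage means still came from the libraries used for choosing. Shares over all genes were not computed for these checks, and no test was made. When the rule was applied with E12 replicate 1 left out of the E12 mean, it chose 142 genes. In the left-out library 67 of these (47.2%) reached 3 times the E8 mean, and their median ratio there was 2.89, against 3.84 in the E12 libraries that chose them. With replicate 2 left out the rule chose 78 genes, 72 of which (92.3%) reached 3 times the E8 mean in replicate 2, with a median ratio of 5.06 there and 3.90 in the libraries that chose them. With replicate 3 left out it chose 108 genes, and 96 (88.9%) met the ratio in replicate 3, with medians of 3.81 and 3.98. With each E16 library left out in turn, 78.3% to 90.8% of the genes chosen lay within 1.5 times of the E12 mean in the left-out library. By the stage means of all libraries, 58.4% of the 9656 genes at 10 CPM or more at E12 lay within that range at E16. That share is not a like measure. It used E16 means, and its genes had not been chosen for lying within the range in other E16 libraries. With each E8 library left out, the E12 mean was at least 3 times the left-out value for 73.9% to 78.9% of the genes chosen.

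Membership followed the same lines. Of the 111 members, the choice without E12 replicate 1 kept 101, that without replicate 2 kept 69 and that without replicate 3 kept 95. Without any single E8 or E16 library, 93 to 108 were chosen again. In all 9 of these choices 53 members were retained. With total counts in place of TMM only 61 genes were chosen, 56 of them members. That scaling put the median log2 difference of all genes between E12 and E8 at -0.24, against -0.01 with TMM, and the members' median difference at 1.58, against 1.83 with TMM. With total counts, 28.8% of the calls over all genes between E12 and E8 were upward, against 49.3% with TMM, and 33.7% of those between E16 and E8, against 46.5%.

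Within E8, replicate 2 was the lowest library in 68 of 111 members (61.3%), against 44.4% of all genes, with a median deviation of -0.12 on the log2 scale. It was also lowest in 55.8% of the genes higher again at E16 and 55.8% of those lower again. Among genes at 10 CPM or more at E12 the share was 48.4%. The rule used the E8 mean, so this order is partly set by the choice. Within E16, replicate 2 was the lowest in 56 members (50.5%) and replicate 3 the highest in 58 (52.3%), against 33.2% and 31.4% of all genes. The E16 deviations were small, between -0.07 and 0.07 in median.

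The spread between replicates was widest at E12. The median coefficient of variation of the members was 14.6% at E8, 19.0% at E12 and 13.4% at E16. Over the 9656 genes at 10 CPM or more at E12 it was 7.495%, 14.7% and 10.2% at these stages, lower at each stage, by a comparison without a test. The members had a median of 13.5 CPM at E8, against 44.6 CPM for these genes, so the levels were not matched there. The other genes high by E12 varied much like the members, with medians of 18.4%, 19.8% and 13.4% among those higher again at E16 and 14.2%, 21.2% and 13.6% among those lower again. The least variable member at E12 had 13.8, 8.87 and 11.7 CPM at E8, 40.9, 41.2 and 42.3 CPM at E12, a coefficient of variation of 1.78%, and 54.2, 48.5 and 55.1 CPM at E16. The most variable at E12 had 15.9, 12.6 and 18.2 CPM at E8, 31.9, 127 and 33.8 CPM at E12, and 57.1, 48.4 and 49.8 CPM at E16. In that gene replicate 2 alone carried the mean, and replicates 1 and 3 were close to 2 times the E8 level.

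Single libraries stood apart in some members at the other stages. The most variable member at E16 had 36.1, 40.4 and 34.0 CPM at E8, 137, 120 and 133 CPM at E12, and 90.02, 283 and 118 CPM at E16, with E16 replicate 2 far above the rest. The most variable member at E8 had 3.35, 12.4 and 3.29 CPM, with replicate 2 high, then 51.6, 68.4 and 53.8 CPM at E12, and 68.9, 55.9 and 72.0 CPM at E16. In each of these genes all later values still lay above all E8 values.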

How the data were processed

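Per the labels' protocols, polyadenylated RNA from 9 pools of mesentery was sequenced in 1 lane as paired reads of 150 bases. The submitters' processing notes name FastQC 0.11.9, cutadapt 3.1, Trim Galore, HISAT2 2.2.1, HTSeq 0.13.5, DESeq2 and the build GRCg6a. The annotation release and the strand setting are not given in the sources used here, so values of genes that overlap, lie antisense to each other or are nearly identical are uncertain. The table the authors deposited holds raw counts, 1 row per Ensembl gene. The 5 category rows for reads assigned to no gene were kept out of all tests and library sizes, and only the share outside annotated features was used.

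Genes at 1 CPM or more in at least 3 libraries were kept (14172 genes) and CPM was scaled with TMM factors for choosing and describing the members. For tests, genes were filtered with filterByExpr by stage (15506 genes, all 111 members among them), and the 3 stage means were fitted to all 9 libraries with edgeR's quasi-likelihood test (edgeR 4.0.16, R 4.3.3, robust estimation) and Benjamini-Hochberg adjustment. The scripts were tested on simulated data. Each stage has 3 libraries of different embryos, and p-values measure the spread between such pools.

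Members, lists and tests were chosen with earlier results of these data known. The 28 lists of pathway and marker genes drawn up by symbol could not be applied. By the naming rule for genes without symbols, the 2 members with the largest E12 to E8 ratio were named. Alternatives were DESeq2 1.42.0, limma-voom (limma 3.58.1), other scaling and filters, other limits of the rule, each library left out, a replicate block, and, as a covariate, the share of reads outside annotated features. In the choices without a library, only the stage mean changed, and TMM factors of all 9 libraries were kept.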

Additional observations from a re-analysis of the deposited data

How the results depend on the processing

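The members were chosen on these same stage means, so their calls against E8 were largely fixed by the choice. The share of reads in no annotated feature as a covariate left 67 called higher in E12 against E8, where 2.31% of all genes were. An adjusted p under 0.01 left 110, where 5489 genes were called, 48.3% upward. Every other alternative called all 111, and 6365 to 9322 of all genes, 28.8% to 53.8% upward. In E16 against E8 the alternatives called 110 to 111 members, and 5561 to 8546 of all genes, 33.7% to 52.8% upward. Over all genes that covariate left 510 called in E12 against E8 (8092 without it) and 2604 in E16 against E12 (8297 without it). The cause was not tested. The calls of members in E16 against E12, 7 higher and 3 lower, were few and moved readily. Higher calls numbered 12 with total counts, 4 without a filter on low counts, 22 with the covariate and 2 at an adjusted p under 0.01. Over all genes these fits called 7894, 8148, 2604 and 6056 in this order, out of 15506 tested except in the fit without a filter. Of those calls 55.3%, 50.6%, 45.8% and 49.9% were upward, against 50.2% in the main fit. Shares of all tested genes called higher were not computed for these fits, and nothing is read from the numbers of members. Lower calls numbered 5 with limma-voom, 1 at an adjusted p under 0.01, and 0 with the covariate in edgeR, where 0 also passed an unadjusted p under 0.05 and 16 members had a log2 fold change below 0; DESeq2 without the covariate called 3. Over all genes limma-voom called 8294 (51.1% upward) and DESeq2 called 8435 (51.5% upward). With each library left out in turn, higher calls of members ranged from 3 to 11 and lower calls from 1 to 19 (19 without E12 replicate 1). Those fits called 6794 to 9199 of all genes, 49.2% to 51.8% of them upward. The log2 fold change of ENSGALG00000053318 in E16 against E12, -0.21, was 0.89 with the covariate and from -0.46 to 0.11 with each library left out, above 0 without E12 replicate 2, and was called in neither fit where it was above 0.

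The rule chose 61 genes with total counts, 395 at a limit of 2 times E8 and 48 at 4 times E8, against 111. With each library left out it chose from 78 to 142. The replicate numbers share no embryos between stages, so they were not taken as pairs. Deviations of libraries with the same number correlated from -0.18 to 0.22 across genes. With different numbers the range was wider. It ran from -0.41 (E12 replicate 1 with E16 replicate 3) to 0.32 (E12 replicate 2 with E16 replicate 3). Not every library correlated best with its own number. With a replicate block, 7941 of 15506 genes (48.3% of the calls upward) and 111 members (all higher) were called for E12 against E8. That fit called 7498 genes (46.8% upward) and 111 members for E16 against E8. For E16 against E12 it called 8100 genes (51.0% upward), with 7 members higher and 4 lower. The members' calls were largely fixed by the choice.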
